A study of Mus musculus with 8 samples.

Results

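Death receptors and the apoptosome are the entry points of the extrinsic and the intrinsic routes to apoptosis, and 10 genes that encode their components were followed in mouse thyroid RNA. The genes were Fas, Fasl, Tnfrsf10b, Lrdd (the array's name for PIDD), Cradd, Fadd, Cflar, Apaf1, Cycs and Xiap. Their values came from every spot for mouse transcripts that carried one of these names, which gave 17 probes and 18 spots of the 55681 probes and 59305 spots on each array. The samples were thyroids of female Balb/c mice aged 8 weeks, hybridised one sample per array to one-colour Agilent arrays. The exposed group comprised 4 mice that had received 99mTcO4- intraperitoneally for an absorbed thyroid dose of 30 Gy, with RNA taken 24 hours after administration. The control group comprised 4 mice that had received no radioisotope, described as untreated in one place of the study and as given saline in another. No genotype, transgene or further agent was given for either group. Control replicates carry the numbers 1 to 4, and exposed replicates the names S539, S588, S589 and S590.

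A death receptor such as Fas binds its ligand outside the cell and gathers the adaptor Fadd and caspase-8 inside it, and Cflar (FLIP) competes for the same platform. In the intrinsic route, cytochrome c leaves the mitochondrion and assembles with Apaf1 into the apoptosome, which activates caspase-9, while Xiap holds caspases in check. Lrdd and Cradd (RAIDD) form the PIDDosome with caspase-2, and Fas, the TRAIL receptor Tnfrsf10b, Lrdd and Apaf1 are known targets of the transcription factor p53, which ionising radiation activates.

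Each value reports the labelled transcript caught by a 60-base probe, so the probes fix what can be read. The last 30 bases of the probes of the 6 genes on which the results turn are shown because they locate the stretch of transcript that was read. Each is written 5′ to 3′ in the sense of the transcript and named by the base of the transcript at which the probe starts. The first copy of AATAAA, the letters of the usual polyadenylation signal, is in capitals.
Fas, base 1389: cctctctatatggaaatgtataatagaaga
Fasl, base 1641: gagcaaacagattctaaggagtcatataaa
Tnfrsf10b, base 3101: tggcagtgtaattacatacacaaAATAAAt
Lrdd, base 2838: agtgggcagagccctatccttctacctcac
Lrdd, base 3639: acaAATAAAataaaagctatttattgtgtg
Fadd, base 1259: caagtgcctttacctggagataacttgtgt
Apaf1, base 5973: tttgtttgtcaggttgaggaaccactttac

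AATAAA lay in the last 30 bases of 4 of the 17 member probes, namely those of Tnfrsf10b, Lrdd at base 3639, Cradd at base 1059 and Cycs at base 2998. Of all 55681 probes 8.16% held these letters on the probe strand and 1.96% held them on the other strand. In mm9 coordinates of the array files, the probe of Fas lay at chr19:34402164-34402223, that of Tnfrsf10b at chr14:70184141-70184200 and that of Apaf1 at chr10:90452580-90452639. Both Lrdd probes were on chromosome 7, the one at base 2838 at chr7:148624416-148624475 and the one at base 3639 at chr7:148624024-148624083. The probe of Fadd was at chr7:151764228-151764267 and that of Fasl at chr1:163711056-163711115. Exon and UTR limits of that build were not used here.

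Between 60.5% and 75.01% of spots were well above background on the control arrays and between 70.9% and 77.3% on the exposed arrays, and no spot was saturated. All arrays shared 1 slide and 1 scan, with exposed samples in the first positions, so the position on the slide and the exposure cannot be told apart. Thyroglobulin (Tg), which defines thyrocytes, was near the top of the scale on every array, and all 9 thyrocyte markers were above background on at least 1 array. Only Slc5a5, the iodide symporter, passed the test among the 60 markers of 12 cell type lists, with a log2 difference of −3.53 (adjusted p = 0.0137). Control replicates 1 and 2 stood apart by T cell transcripts. The mean log2 signal of 5 markers of developing T cells was 11.06 and 10.26 on these arrays, 5.21 and 4.97 on control replicates 3 and 4, and 5.04 to 6.64 on the exposed arrays. S588 stood apart by neutrophil transcripts, with a mean of 15.2 over 3 markers against 10.2 to 12.2 on the other arrays. These tissues are mixtures, and fewer cells of a type cannot be told apart from less RNA per cell.

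Exposed thyroids had more Fas, Tnfrsf10b and Lrdd transcript than control thyroids. Lrdd rose 8.64-fold, Tnfrsf10b 4.24-fold and Fas 3.86-fold, and every exposed array exceeded every control array for these genes. None of the other 7 genes passed the test. Apaf1 came closest, with a 2.91-fold difference whose call depended on the scaling and the background correction. The differences were tested with limma on quantile-normalized log2 signals, with Benjamini-Hochberg adjustment over all 55681 probes and a threshold of 0.05. By this test 4 of 17 member probes were higher and 0 were lower, and 7 of them had an unadjusted p under 0.05, as had 12.2% of all probes. Over all probes 0.587% were called higher and 0.194% lower. Counted once per gene, by the RefSeq probe of highest mean signal, 3 of the 10 genes were called higher against 0.904% of 21021 RefSeq genes. The median log2 difference over the 10 genes was 0.28, and it was −0.03 over all RefSeq genes. Fas, Lrdd, Apaf1 and a TRAIL receptor were named by the study from these arrays, so their direction is not independent evidence.

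**Figure D1:**
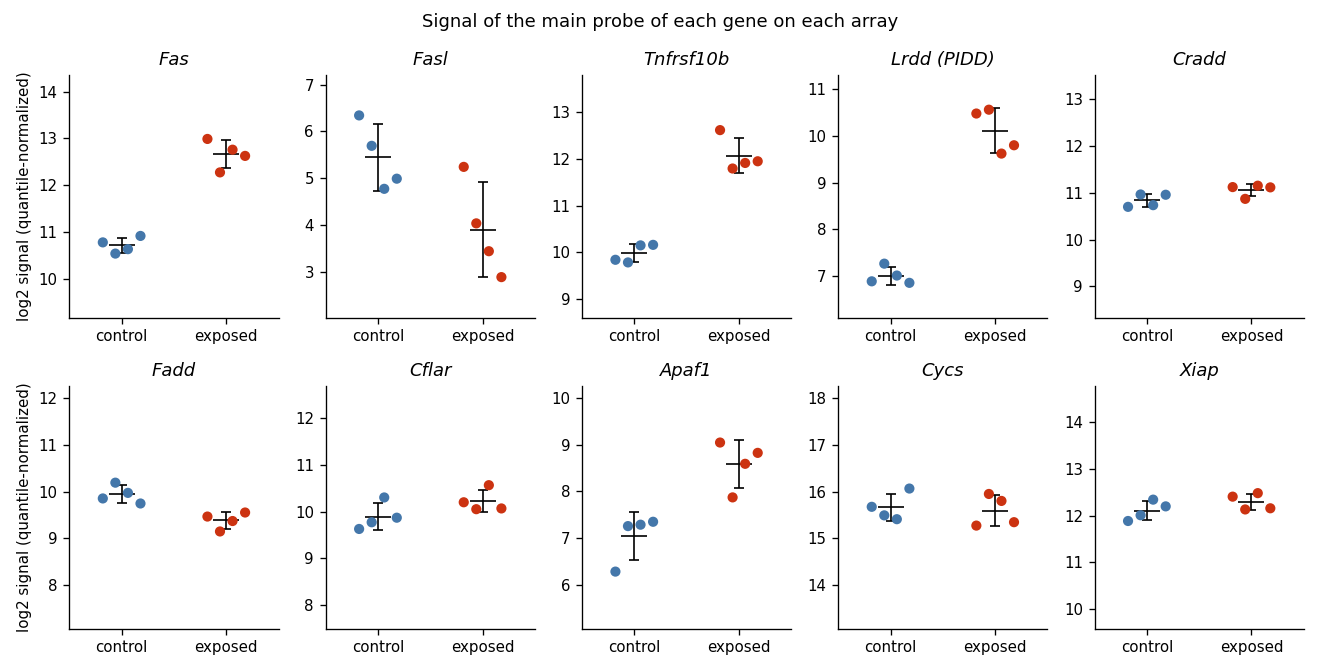
Signal of the main probe of each gene on the 4 control (blue) and 4 exposed (red) arrays, on the log2 scale after quantile normalization, with the group mean and SD in black. Each panel has its own level and the same height in log2 units. Fas, Tnfrsf10b, Lrdd and Apaf1 are above the controls on all 4 exposed arrays, and Fadd is below them.

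Fas encodes the receptor CD95, which recruits Fadd when its ligand binds. Its log2 signal on control replicates 1 to 4 was 10.78, 10.54, 10.63 and 10.91. On S539, S588, S589 and S590 it was 12.99, 12.27, 12.76 and 12.63. The lowest exposed array therefore lay well above the highest control array. The difference was 1.95 (SE 0.18, 95% interval 1.52 to 2.38, adjusted p = 0.00662). Fas was the only member spotted more than once, and its 2 spots differed by 0.03 to 0.12 log2 units on the 8 arrays, far less than the groups did.

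Tnfrsf10b encodes the mouse receptor for TRAIL. Its log2 signal was 9.84, 9.79, 10.15 and 10.16 on control replicates 1 to 4 and 12.62, 11.80, 11.92 and 11.95 on S539, S588, S589 and S590. Again no exposed array reached down to the control range, and S539 was the highest, as it was for Fas. The difference was 2.08 (SE 0.21, 95% interval 1.59 to 2.58, adjusted p = 0.00845).

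Lrdd encodes PIDD, a death-domain protein and the scaffold of the PIDDosome. The probe at base 2838 read 6.89, 7.27, 7.01 and 6.86 on the controls in order and 10.48, 10.56, 9.62 and 9.80 on the exposed arrays S539 to S590. The probe at base 3639, whose accession is from Ensembl, read 8.57, 8.70, 8.31 and 8.21 on the controls and 11.69, 11.29, 11.09 and 11.36 on the exposed arrays. The groups were apart on both. The difference was 3.11 (SE 0.25, adjusted p = 0.00320) by the first probe and 2.91 (SE 0.18, adjusted p = 0.00153) by the other, and the 95% intervals of 2.54 to 3.68 and 2.48 to 3.33 overlapped. Lrdd had the largest difference of the 10 genes.

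These calls held under each of the other settings tried and with each single array left out. They did not hold by the adjusted p when control replicates 1 and 2, the arrays with T cell transcripts, were left out together. With 2 control arrays left, 0 of the 10 genes passed limma's threshold by the main probe (5 at an unadjusted p under 0.05, against 14.0% of all RefSeq genes) and 1 of 17 probes did, that of Lrdd at base 3639. The differences themselves were then 1.89 for Fas (adjusted p = 0.0801), 1.92 for Tnfrsf10b (adjusted p = 0.102) and 3.20 for Lrdd (adjusted p = 0.0518), and the groups remained apart for each of these genes. On these 6 arrays 83 of all probes were called, against 435 on all 8.

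**Figure D2:**
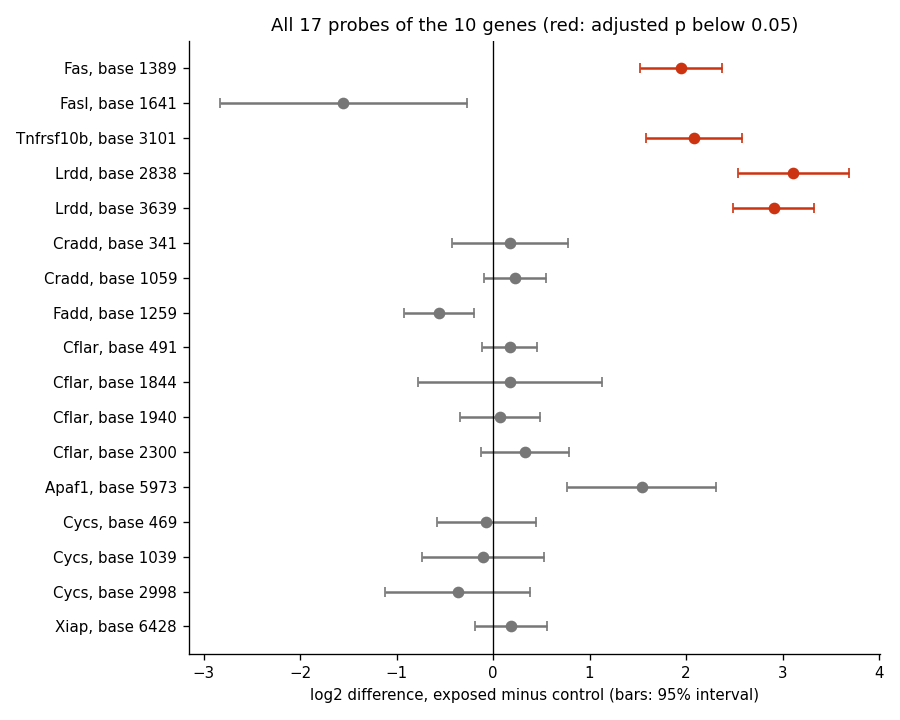
Difference between exposed and control thyroids in log2 units for each of the 17 probes, named by gene and first base in the transcript. Bars are 95% intervals from limma, and red marks an adjusted p below 0.05. The probes of Fas, Tnfrsf10b and Lrdd lie at 1.95 or more, while those of Cradd, Cflar, Cycs and Xiap lie within 0.37 of 0.

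Fasl encodes the ligand of Fas and is known from activated T and NK cells. Its probe was well above background on 2 of 4 control and 1 of 4 exposed arrays, so its values are mostly near the floor of the scale. The log2 signal was 6.34, 5.69, 4.77 and 4.99 on control replicates 1 to 4 and 5.24, 4.03, 3.44 and 2.88 on S539, S588, S589 and S590. In the main analysis the groups overlapped through S539. The difference of −1.55 (SE 0.55, adjusted p = 0.323) did not pass the test, and it was −0.57 in the deposited values, which had no background subtraction. In those values every exposed array lay below every control array, but the difference did not pass limma's threshold there either (adjusted p = 0.192). Control replicates 1 and 2 and S539 had the highest Fasl signals in their groups, and they had the highest means of the T cell lists as well. This order of the means did not hold gene by gene. In the T and NK cell list, S539 was the highest exposed array for Cd3e, Cd3d, Cd2, Cd8a and Cd4 only. For Gzma and Prf1 it was the lowest exposed array. Without control replicates 1 and 2 the Fasl difference was −0.96 (adjusted p = 0.547).

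**Figure D3:**
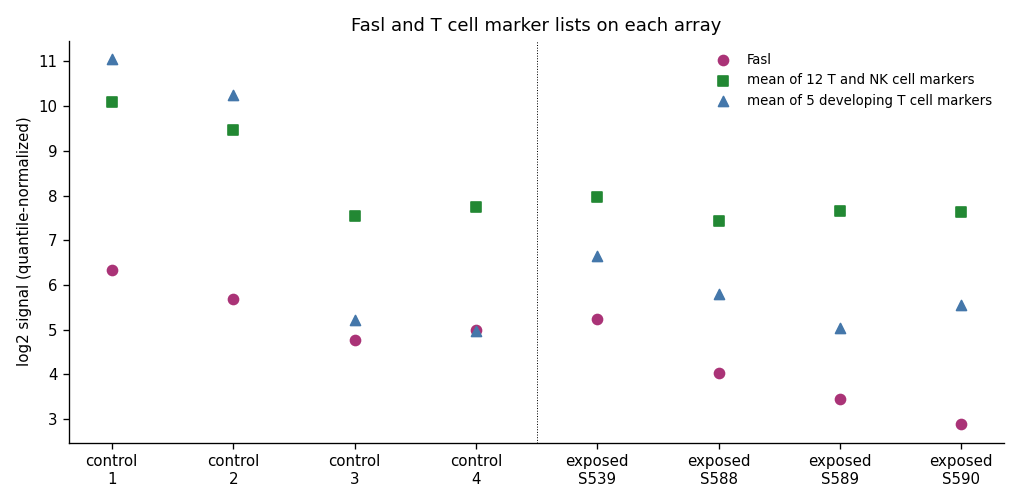
Log2 signal of Fasl, the mean of 12 T and NK cell markers and the mean of 5 developing T cell markers on each of the 8 arrays. Control replicates 1 and 2 have the highest value of each series, and S539 has the highest value of each series among the exposed arrays.

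The T and NK cell markers averaged 10.1 and 9.46 on control replicates 1 and 2, 7.54 and 7.75 on replicates 3 and 4, and 7.43 to 7.97 on the exposed arrays. None of the 12 passed the test in either direction, and 1 of them, Klrb1c, was well above background on no array. The T cell receptor component Cd3d, which had the largest difference of the 12, read 12.99 and 11.67 on control replicates 1 and 2 and 5.47 to 7.92 on the other 6 arrays. Cd3e, Cd3g, Cd2, Cd8a, Gzma, Cd4 and Nkg7 were also higher on control replicates 1 and 2 than on the other 6 arrays, the last of these, like Cd4, only narrowly. Gzmb, Prf1, Ncr1 and Klrb1c were not. The part of T and NK cells in the Fasl difference was not tested beyond leaving control replicates 1 and 2 out.

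Among the adaptors, Fadd, which links death receptors to caspase-8, had lower values in exposed thyroids without passing the test. Its log2 signal was 9.85, 10.19, 9.97 and 9.74 on control replicates 1 to 4 and 9.46, 9.15, 9.37 and 9.55 on S539, S588, S589 and S590. Every exposed array lay below every control array, which held for 1 of 17 member probes and for 4.37% of all probes. The difference was −0.56 (SE 0.16, 95% interval −0.92 to −0.19), with an unadjusted limma p of 0.00772 and an adjusted p of 0.208.

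Cradd, the adaptor between PIDD and caspase-2, did not follow Lrdd past the test. Its brighter probe, at base 1059, averaged 10.84 on the controls (SD 0.14, n = 4) and 11.07 on the exposed arrays (SD 0.13, n = 4), and the groups overlapped, with a difference of 0.23 (95% interval −0.09 to 0.54, adjusted p = 0.538). The other, at base 341, differed by 0.17 (95% interval −0.43 to 0.77). Both intervals lie below the lower limit of the Lrdd intervals.

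Cflar, the inhibitor of caspase-8 activation at the receptor, was read by 4 probes along its transcripts. Their differences were 0.17 at base 491, 0.18 at base 1844, 0.08 at base 1940 and 0.33 at base 2300, and none passed the test (adjusted p 0.533 to 0.889). The probe at base 2300 read 9.63 to 10.30 on the controls and 10.05 to 10.57 on the exposed arrays. Its 95% interval of −0.13 to 0.78 leaves room for a rise of less than 1 log2 unit. The probe at base 1844 was the least precise, with an SD of 0.74 among controls against 0.12 to 0.29 for the other 3 probes.

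Apaf1 encodes the scaffold of the apoptosome. Its log2 signal was 6.28, 7.26, 7.29 and 7.35 on control replicates 1 to 4 and 9.05, 7.87, 8.59 and 8.82 on S539, S588, S589 and S590. The groups did not overlap, although S588 lay only slightly above the highest control. The 4 exposed arrays exceeded all controls for 5 of 17 member probes, this one and the 4 that were called, and for 4.74% of all probes. The difference was 1.54 (SE 0.33, 95% interval 0.77 to 2.31), and the adjusted p of 0.110 missed the threshold. It passed under the 75th-percentile scaling, normexp, no background correction and in the deposited values, with an adjusted p of 0.0223 to 0.0381 and differences of 1.16 to 1.68.

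Cycs encodes cytochrome c, which the apoptosome binds. The probes at bases 469, 1039 and 2998 differed by −0.07, −0.10 and −0.37, and none passed the test (adjusted p 0.670 to 0.922). The probe at base 469 read 15.41 to 16.07 on the controls and 15.27 to 15.95 on the exposed arrays, and the groups overlapped. Cytochrome c has near-identical processed copies in the mouse genome, so signal from such copies cannot be separated at a single probe. Xiap, which binds and inhibits caspases, read 11.89, 12.01, 12.34 and 12.20 on control replicates 1 to 4 and 12.41, 12.13, 12.48 and 12.16 on S539, S588, S589 and S590. Its difference of 0.19 (95% interval −0.18 to 0.55, adjusted p = 0.660) lay within the spread of the groups.

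The genes also moved relative to one another on the same arrays, a comparison in which any shift common to an array cancels. A receptor was set against its adaptor or inhibitor, Lrdd against Cradd, and Apaf1 against its partner and against Xiap. The log2 difference between the members of each of 6 pairs was taken on every array and compared between groups by a two-sided exact permutation test over the 70 assignments of arrays. The smallest p that this design allows is 0.0286.

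Fas rose against Fadd by 2.51 log2 units, from 0.35 to 1.17 on the control arrays to 3.08 to 3.53 on the exposed arrays. Against Cflar it rose by 1.62. Tnfrsf10b rose against Fadd by 2.64 and Lrdd against Cradd by 2.88. Apaf1 rose by 1.61 against Cycs and by 1.35 against Xiap. All 6 pairs had no overlap between groups and the smallest possible p of 0.0286 by the exact permutation test, which is 0.0286 after adjustment over the 6 pairs. Every exposed array was already above the controls for Fas and Tnfrsf10b and below them for Fadd, so the pairs with Fadd could not overlap. The pairs also share members and were chosen with earlier results known. Their p-values therefore restate the differences of the single genes and are not further evidence. Apaf1 against Cycs was the least separated, with −9.39 to −8.12 on the control arrays and −8.08 to −6.23 on the exposed arrays, and the exact permutation p was 0.0571 in the deposited values, with normexp and without background correction. These values compare changes, and they say nothing of the relative amounts of the transcripts.

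**Figure D4:**
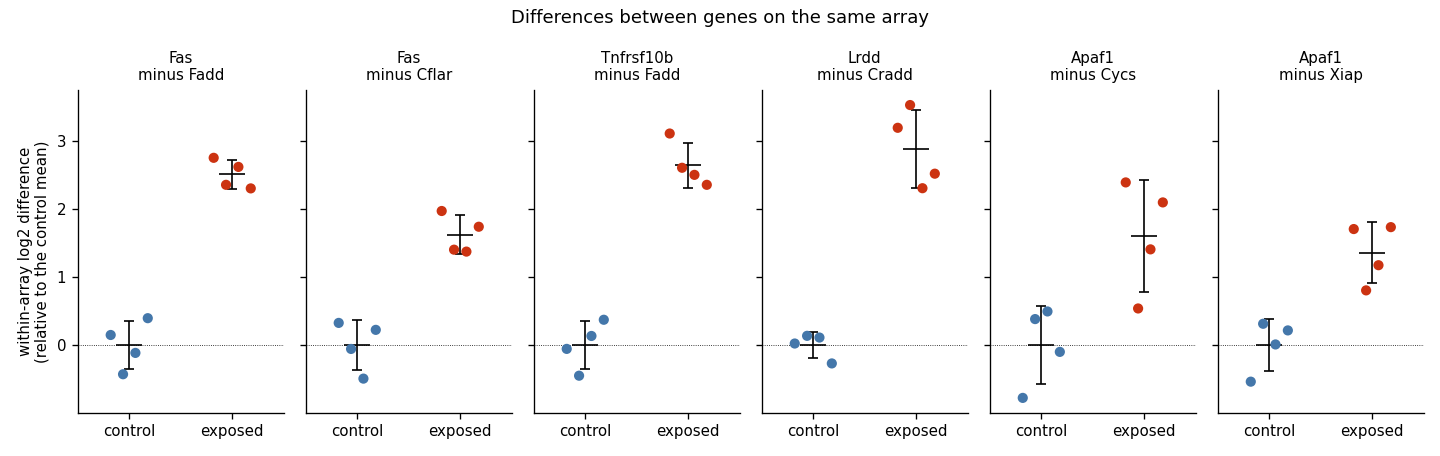
Within-array log2 difference between the genes of each of 6 pairs, drawn relative to its mean over the control arrays, for 4 control (blue) and 4 exposed (red) arrays with the mean and SD in black. The exposed arrays lie above the control arrays in all 6 pairs, most narrowly for Apaf1 minus Cycs.

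The order of the exposed arrays was not the same for all members. S588 was the lowest exposed array for 10 of the 17 probes, Fas, Tnfrsf10b and Apaf1 among them. For Lrdd at base 2838 it was the highest instead. S539 was the highest exposed array for 6 probes, including Fas, Tnfrsf10b, Lrdd at base 3639 and Apaf1. Without S588 the differences of Fas, Tnfrsf10b and Lrdd still passed the threshold.

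Genes with the most similar profile were sought for the 3 called genes among 13766 RefSeq genes whose mean log2 signal was 7 or more, by the root mean square difference of profiles centred over the 8 arrays. The nearest to Fas were Aen (0.12 log2 units), Thyn1 (0.17) and Bax (0.17). The nearest to Tnfrsf10b were Ppp1r13l, Polk and Mdm2, each at 0.15. The profile of Lrdd had less close neighbours, namely Dcxr (0.25), Susd4 (0.30) and Eppk1 (0.33). These distances are a description, and all 9 neighbours had log2 differences of 1.67 to 3.07.

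Other genes of the pathway were taken as 52 genes in 7 lists. Of these, 6 were called higher and 0 lower, and the 6 were in the lists on mitochondrial release and on p53. Among all RefSeq genes 0.904% were called higher. Bax, Bbc3, Bcl2l1, Cdkn1a and Mdm2 were named by the study from these arrays, so their direction is not independent evidence. The median log2 difference over the 52 genes was 0.02, against −0.03 over all RefSeq genes. The other 5 lists held no called gene.

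Of the 9 other death receptors and decoys 0 passed limma's threshold, and the median log2 difference was 0.51. The largest difference was in Eda2r (XEDAR), a receptor of the ectodysplasin family. Its probe was above background on none of the 4 control and on all 4 exposed arrays, with 3.72 to 4.83 on the controls and 5.37 to 7.30 on the exposed arrays. Its bound is a rise of at least 2.21-fold, taken against the lowest signal well above background on each control array, and the adjusted p of 0.0908 missed the threshold. Of 7 other death ligands 0 passed, with a median of −0.31. The largest fitted difference was that of the cytokine Tnf, at −0.61 (adjusted p = 0.376), but its probe was well above background on 1 of 4 control and 0 of 4 exposed arrays, so neither its size nor its rank is firm.

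Among 11 adaptors and components of the death-inducing complex, which include Casp8, Tradd and Ripk1, 0 passed and the median was 0.02. Dedd2, a death-effector-domain protein, had the largest difference at 0.86 (adjusted p = 0.0727), with 11.99 to 12.29 on the controls and 12.66 to 13.19 on the exposed arrays. Among the 5 caspases of the apoptosome list 0 passed, with a median of −0.09. Among 9 inhibitors of apoptosis and their antagonists 0 passed, with a median of 0.00206. The largest difference was in survivin (Birc5), a gene of dividing cells, at −2.11 (adjusted p = 0.444). Birc5 was at 11.58 or more on control replicates 1 and 2, the arrays with T cell transcripts, and read 7.41 to 8.71 on the other 6 arrays.

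In the list on mitochondrial release 4 of 8 genes were called higher and 0 lower. The median log2 difference was 0.81, within a range of −0.54 to 3.58. Bid, Bak1 and Bcl2 had negative differences that did not pass the test. The pore-forming protein Bax rose by 1.98 (adjusted p = 0.00286), and the BH3-only proteins Bbc3 (Puma) and Pmaip1 (Noxa) rose by 1.83 (adjusted p = 0.00633) and 3.58 (adjusted p = 0.0162). The probe of Pmaip1 was well above background on 3 of 4 control arrays and on all 4 exposed arrays. Bcl2l1, which encodes the survival protein Bcl-xL, rose as well, by 1.18 (adjusted p = 0.0395). Bax read 12.21 to 12.41 on the controls and 14.13 to 14.55 on the exposed arrays. Of the 3 reference genes of the p53 response, Cdkn1a (p21) rose by 3.83 (adjusted p = 0.00320) and Mdm2 by 2.32 (adjusted p = 0.00714). The transcript of p53 itself, Trp53, had a difference of −0.27 (adjusted p = 0.699).

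**Figure D5:**
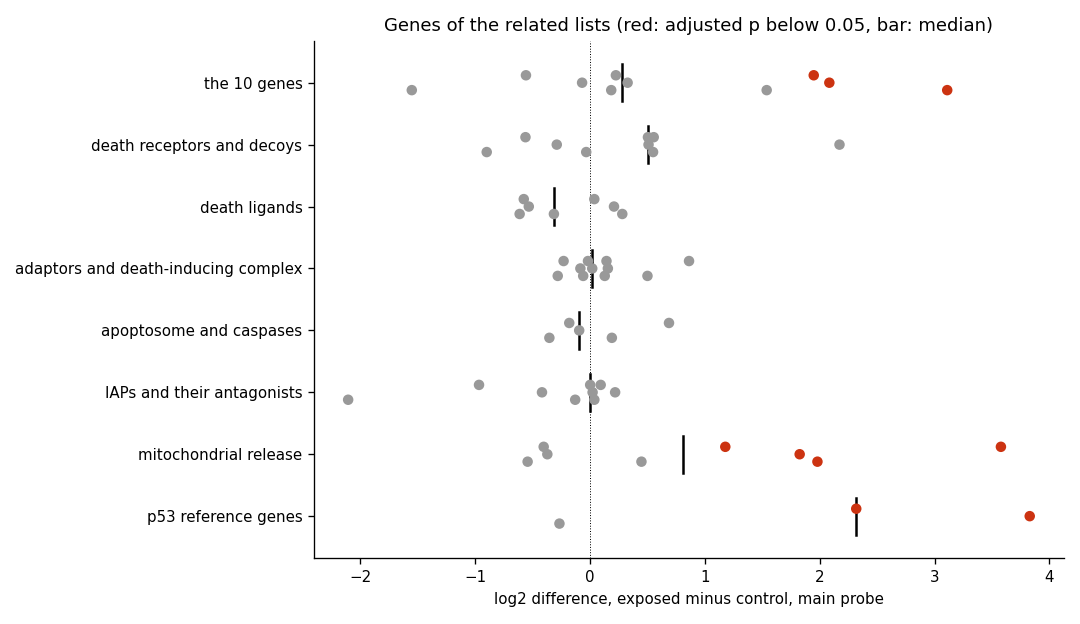
Log2 difference between exposed and control thyroids for the main probe of each of the 10 genes and of the genes of 7 related lists, with the median of each list as a black bar and red for an adjusted p below 0.05. Called genes appear in the rows of the 10 genes, mitochondrial release and p53 reference genes.

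Promoter sequence was available for 9 of the 10 genes in the RefSeq table of build GRCm38.p6, and Tnfrsf10b had no entry. The 250 bases before the start of Fas and Lrdd (Pidd1 in RefSeq) are shown because these genes rose. Those of Fasl are shown because it was the only member gene with a match to the p53 consensus decamer, which is a half-site. Capitals mark that decamer and the GC box, GGGCGG on either strand.
Fas, chr19:34290409-34290658, plus strand: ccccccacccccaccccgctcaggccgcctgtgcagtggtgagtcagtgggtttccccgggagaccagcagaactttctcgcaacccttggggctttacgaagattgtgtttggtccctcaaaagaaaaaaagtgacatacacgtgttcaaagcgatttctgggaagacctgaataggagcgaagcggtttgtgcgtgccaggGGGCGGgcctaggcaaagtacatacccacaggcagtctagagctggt
Fasl, chr1:161788496-161788745, minus strand: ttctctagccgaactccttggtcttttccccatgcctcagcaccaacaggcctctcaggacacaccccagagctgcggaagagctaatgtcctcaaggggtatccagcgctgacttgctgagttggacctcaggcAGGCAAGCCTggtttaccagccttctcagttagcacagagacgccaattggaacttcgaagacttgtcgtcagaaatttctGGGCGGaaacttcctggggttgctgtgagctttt
Lrdd, chr7:141444026-141444275, minus strand: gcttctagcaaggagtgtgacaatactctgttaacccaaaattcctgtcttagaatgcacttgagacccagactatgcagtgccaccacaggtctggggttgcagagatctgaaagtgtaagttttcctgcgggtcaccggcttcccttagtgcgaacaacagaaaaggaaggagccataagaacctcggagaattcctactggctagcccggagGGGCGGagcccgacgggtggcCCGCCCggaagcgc

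The decamer was searched on both strands, being its own complement, and it was found in 7.13% of the 32851 promoter windows of the same length. The match in Fasl starts 115 bases before the gene's start. No match lay in these windows of Fas, Lrdd or Apaf1, and p53 sites elsewhere in these genes were not searched. The GC box was found in 6 of the 9 genes, including Fas, Lrdd, Fasl, Fadd and Apaf1. By window it was found in 7 of the 11 windows of these 9 genes and in 32.7% of all windows. It does not overlap the decamer in Fasl. These matches are a description of letters, not of binding.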

How the data were processed

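RNA of 4 control and 4 exposed mouse thyroids was measured on one-colour Agilent arrays. The authors deposited the intensity of each spot as written by Feature Extraction 10.7.3.1, per the file headers, and a table of log2 values made by quantile normalization, which lay within 0.0378 of the log2 median spot signals, not background-subtracted, after quantile normalization. Here the log2 of the background-subtracted intensity was quantile-normalized over 59305 spots and averaged per probe. R 4.3.3 and limma 3.58.1 (lmFit, eBayes, no covariate) tested 55681 probes, with Benjamini-Hochberg adjustment. A gene was read by its RefSeq probe of highest mean signal. Permutation tests used scipy 1.17.1. The scripts were tested on simulated data.

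The members, lists, pairs and rules were chosen with earlier results of these data known. Named genes were the members, list genes past the threshold or, in lists without one, the gene of largest difference, and the 3 nearest genes in profile. One gene that this rule names is not reported here. Alternatives were 75th-percentile scaling, normexp (offset 50), the deposited values, no background correction and leaving out spots with an outlier mark. Others were a filter on dim probes, a variance trend, a Student's t-test, any probe of a gene, and leaving out each array. The study's methods name the t-test for dual comparisons and a B-test for its arrays. Leaving out control replicates 1 and 2 together was added after seeing the data. RefSeq tables of GRCm38.p6 gave promoters and names only. The 12 marker lists covered thyrocytes, T and NK cells, developing T cells, B cells, macrophages, neutrophils, endothelium, fibroblasts, skeletal muscle, adipocytes, parathyroid and C cells. The number of arrays limits the precision.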

Additional observations from a re-analysis of the deposited data

Results flagged for a closer look

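In 4 of 34 groups of 4 arrays (17 probes in each group), 1 array lay far from the other 3 by Dixon's criterion, and chance gives about 1 in 20 (1.7 of 34). For Apaf1, control replicate 1 read 6.28 against 7.26 to 7.35 on the other controls. For Cradd at base 341, control replicate 1 read 6.56 against 7.31 to 7.44. For Cradd at base 1059, S588 read 10.87 against 11.12 to 11.16 on the other exposed arrays. For Cycs at base 1039, control replicate 4 read 14.52 against 13.61 to 13.66. No cause was tested.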

How the results depend on the processing

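The number of member probes past the threshold was 4 in the main analysis and 4 or 5 under each other processing listed above, and that of member genes was 3 and 3 or 4, with Apaf1 as the added gene. With each single array left out the counts were 4 and 3. The filter on dim probes removed Fasl. Without control replicates 1 and 2 together, 1 probe and 0 genes passed. The differences of Fas stayed between 1.83 and 2.08, those of Tnfrsf10b between 1.90 and 2.18 and those of Lrdd between 2.62 and 3.29 over these and the single arrays left out. Cycs, near 0 in the main analysis, was positive with 75th-percentile scaling (0.00335), without spots with an outlier mark (0.014), and without control replicate 4, S539 or S590 (0.0125 to 0.0678), within a range of −0.18 to 0.0678 over single arrays left out, and the cause was not tested. The change of Apaf1 against Cycs had an exact permutation p of 0.0571 with normexp (1.19), without background correction (1.22) and in the deposited values (1.23). Without spots with an outlier mark it was 1.44 on the 7 arrays left, on which the exact permutation test cannot go below 0.0571. No other within-array change lost its call, and over single arrays left out, where no test was made, each kept its sign. Over all probes the main 435 calls became 289 to 962 under the other processing and 100 to 485 with an array left out, and 75th-percentile scaling moved the median of all probes by 0.16. By the Student's t-test 8 member probes had a p under the threshold before adjustment, as had 12.5% of all probes, and 4 after it. No paired analysis was possible because the groups share no replicate number. Fasl and Eda2r lie near background, which limits their folds.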
